A study of Mchenga conophoros with 13 samples.

Results

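The comparison described here is that of building with control males of *Mchenga conophoros* within the pallial spots of their telencephalon sections. A spot was called pallial from its own counts of unique molecular identifiers (UMIs, 1 per captured RNA molecule). Spots with at least 500 UMIs were kept, P was the UMIs of slc17a6, bhlhe22, LOC101480282 and LOC101472195, and Q was the UMIs of gad2, dlx5, six3 and sp9. A spot was kept as pallial when P was at least 5 and greater than 2 times Q. This held for 2481 of the 6624 spots with enough UMIs, or 37.5%. In the study's tables LOC101480282 carries the name eomesa and LOC101472195 the name neurod6b.

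Spatial transcriptomes (Visium, in which a tissue section lies on a field of barcoded spots) were recorded from 10 µm coronal sections of the telencephalon of adult males, on 13 capture areas. The labels give 2 males as building and 2 as not building, the control group. A bower is the sand structure in which males of this species court. In the study's behavior assay, building males were collected while constructing a bower, and control males had sand and females without building. For the males of these sections the study does not restate this. Building male 1 is represented by capture area C alone, and the other 3 males by areas A to D. The comparison asks which genes of the pallium differ between building and control males. All were adults. What sets building male 1 apart and the plane of its only section cannot be told apart.

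The pallium is the dorsal part of the telencephalon, and in ray-finned fish it folds outward during development, so that regions compared with the mammalian hippocampus, amygdala and cortex come to lie at unusual positions. Its principal neurons release glutamate, which slc17a6 (vesicular glutamate transporter 2) loads into vesicles, while gad2, dlx5, six3 and sp9 mark the GABA neurons of the subpallium. Radial glia line the ventricle and go on producing neurons in adult fish. Neurons that have recently been active express immediate early genes such as egr1, npas4 and fos, which makes these genes a common readout of behavior.

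Pallial spots numbered 248 of 797 in building male 1 (31.1%), 1081 of 2677 in building male 2 (40.4%), 433 of 1496 in control male 1 (28.9%) and 719 of 1654 in control male 2 (43.5%). The 95% Wilson intervals, which cover counting error only, were 28.0 to 34.4%, 38.5 to 42.3%, 26.7 to 31.3% and 41.1 to 45.9%. The males numbered 2 had the higher share in each group, and the groups overlapped. Their summed depth was 1747973 and 12061697 UMIs in building males 1 and 2 and 2812073 and 8581365 UMIs in control males 1 and 2. The deeper males were therefore the males numbered 2, 1 in each group. Shares of pallial spots ran from 8.63% to 66.7% over single capture areas, and both ends of this range were control areas. Area C of control male 1 was the shallowest, with 32 pallial spots and a median of 2096 UMIs, against 5674 to 11455 for the males as a whole. The rule leans on depth. The 171 spots that entered with P of exactly 5 held a median of 12.8 P UMIs per 10000, and the 113 spots left out with P of 4 held 11.1. A Visium barcode names a position on the array and not a cell, and 1631 of the 2717 barcodes occurred in more than 1 library.

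**Figure D1:**
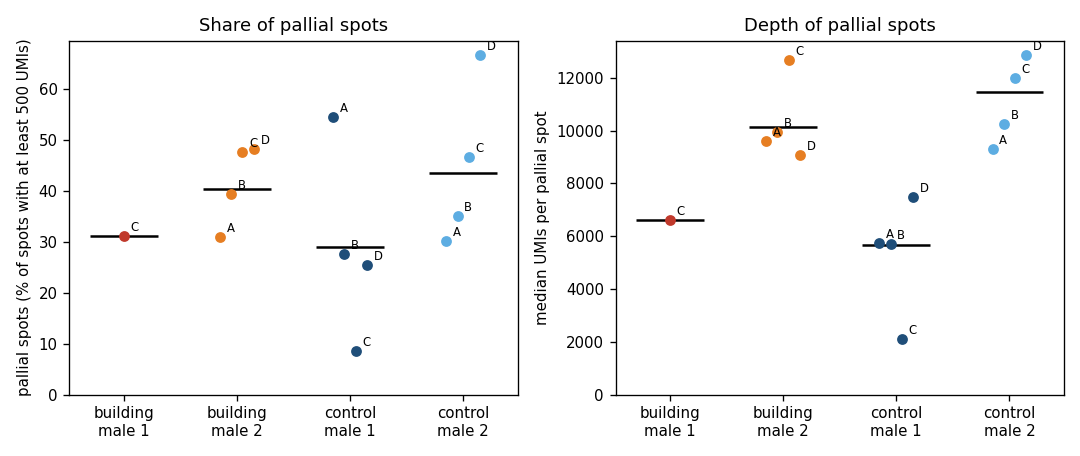
Share of spots called pallial (left, % of spots with at least 500 UMIs) and median UMIs per pallial spot (right), with 1 point per capture area, its letter beside it, and a bar for the male as a whole. Shares spread from 8.63% to 66.7% between areas, and the 2 groups overlap in both panels.

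Levels are given below as CPM, the UMIs of a gene per 1000000 UMIs of a male's pallial spots after trimmed-mean (TMM) scaling, with male 1 of each group first. Values of subpallial spots, all spots and single capture areas are CPM without TMM scaling. The genes of the rule chose the spots and are given only as values. The level of slc17a6 was 908 and 930 CPM in the building males and 947 and 852 CPM in the control males. For bhlhe22, a transcription factor of glutamate neurons, it was 386 and 236 CPM against 345 and 314 CPM. The subpallial gene gad2 stood at 230 and 203 CPM against 197 and 233 CPM.

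Markers that the rule did not use matched the pallial label in part. Without TMM scaling, LOC101482485 (slc17a7, vesicular glutamate transporter 1) lay between 391 and 467 CPM in the pallial spots of the 4 males and between 73.0 and 117 CPM in their subpallial spots. The GABA enzyme gene gad1 lay between 10.9 and 16.2 CPM in pallial and between 244 and 343 CPM in subpallial spots. The ranges did not overlap for either gene, nor for neurod1 and dlx2 of the same lists. Other members overlapped. fezf2 lay at 24.5 to 61.2 CPM in pallial and 19.4 to 26.8 CPM in subpallial spots. LOC101473770 (gad1b), also a GABA enzyme gene, lay at 1.74 to 15.4 CPM and 11.9 to 34.4 CPM. The pallial transcription factor tbr1 reached only 1.16 to 3.91 CPM in pallial spots and LOC101464700 (emx3) only 0.47 to 1.72 CPM. These defining markers were close to absent. In subpallial spots tbr1 was lower still, at 0 to 0.70 CPM without overlap, while emx3 overlapped, at 0 to 4.21 CPM. A spot can hold several cells, and markers of other cell types were present throughout. Summed over their lists, radial glia markers lay at 4844 and 3729 CPM in the building and 4481 and 4535 CPM in the control males. Oligodendrocyte markers lay at 437 and 624 CPM against 483 and 498 CPM. A large part of this sum was mag, which, unlike the marker mpz, was denser in the pallial than in the subpallial spots of every male. In each of these sums building male 2 was at an end of the range and the other 3 males lay closer together.

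No gene passed the test between building and control pallial spots after correction, which does not show that levels were equal. Among 13994 genes tested with edgeR's quasi-likelihood test and Benjamini-Hochberg adjustment, 0 passed an adjusted p of 0.05 (0% of genes), and the smallest adjusted p was 0.693. At an unadjusted p below 0.05 stood 301 genes (2.15%), of which 142 were higher (1.01% of genes tested) and 159 lower (1.14%). A larger share would fall below this cut-off if no gene differed and p-values were uniform. The unadjusted p of a single gene therefore carries little weight. DESeq2 called 8 genes, 5 higher and 3 lower (0.038% of the 21026 it tested). The median log2 fold change over all genes was 0.00. The groups did not overlap, in that both building males lay on the same side of both control males, for 1875 genes above (13.4%) and 1970 below (14.1%). With 2 against 2 males an exact two-sided permutation test cannot give a p below 0.33, so for single genes the fit across all genes is the only test used.

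Over all tested genes, the 2 building males lay farther apart than any 2 males of different groups. The 2 control males did not. The median absolute log2 difference of a gene was 0.31 between the 2 building males and 0.23 between the 2 control males. Between males of different groups it ran from 0.17 to 0.29, so the control pair lay inside this range. The 0.17 was that of building male 2 and control male 2, the smallest of the 6 pairs. These are the deeper males, and the part of depth in this was not tested. Leaving out building male 1 gave 317 calls and leaving out building male 2 gave 138, whereas leaving out control male 1 or control male 2 gave 0. In each of these fits the lone male of a group is assumed to vary like the others.

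**Figure D2:**
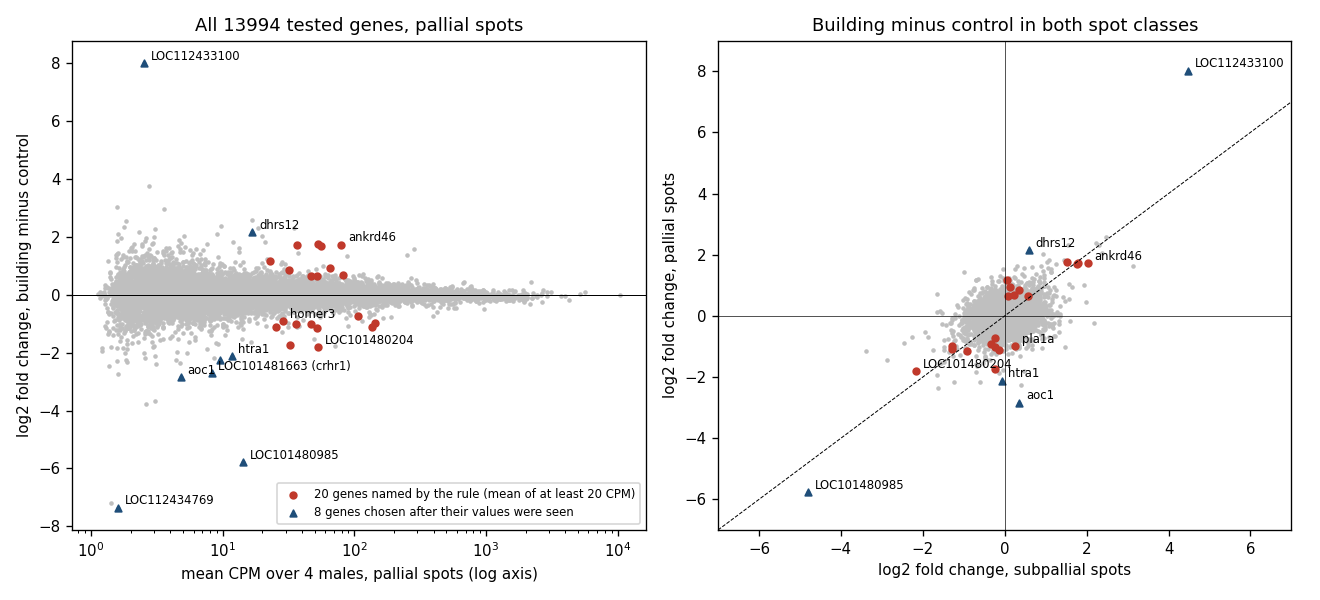
Left, log2 fold change (building minus control) against mean CPM on a log axis for the 13994 tested genes in pallial spots. Right, the same fold change against that in subpallial spots of the same males, with a dashed line where both are equal. Red points are the 20 genes named by the rule and blue triangles the 8 genes chosen after their values were seen. LOC101480985, LOC101480204 and ankrd46 lie near the dashed line, while aoc1 and htra1 lie below it.

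The genes described first are the 10 in each direction with the smallest unadjusted p among those with a mean of at least 20 CPM and groups that did not overlap. They come from the 1911 genes of this kind (25.7% of the 7427 at that level), and being picked for their difference they carry no weight as a count. LOC101480204 was the lowest in p. Its level was 27.0 and 21.2 CPM in the building males and 89.3 and 75.1 CPM in the control males. Both building males lay far below both control males, a 3.41-fold difference of means (log2 fold change -1.81 ± 0.20 SE, unadjusted p = 7.7e-05). In edgeR its adjusted p was 0.693. It passed in some of 17 alternative analyses, among them DESeq2, the replicate number as a block and spots thinned to 2000 UMIs, and not in others. The alternatives share the same counts, so this is not separate support. LOC101480204 kept its sign in all 17, but this sign was largely fixed by the rule, which required groups that did not overlap. The files give this gene no name.

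ankrd46, which encodes a little studied protein with ankyrin repeats, was at 156 and 89.2 CPM in the building males. In the control males it stood at 37.9 and 34.9 CPM. Both building males were above both controls, although building male 1 was also well above building male 2. The means differed 3.37-fold (log2 fold change 1.73 ± 0.28 SE, unadjusted p = 0.00069). ankrd46 passed in some alternatives, DESeq2 and the replicate number as a block among them, and not in others. LOC101485431 was as far apart, with 55.1 and 57.4 CPM against 12.5 and 20.4 CPM (1.72 ± 0.25 SE). For this gene the 2 building males were nearly equal and the control males were not. LOC112432554 (105 and 60.8 against 19.6 and 27.2 CPM) and LOC112431835 (105 and 68.2 against 14.3 and 35.4 CPM) had the same layout as ankrd46, with building male 1 the highest of the 4.

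The other genes higher in building had smaller differences. bcl11b, a zinc finger transcription factor known in mammals from projection neurons of the deep cortex and from the striatum, was at 54.0 and 61.2 CPM against 35.0 and 38.5 CPM. In their sums both building males were above the controls (log2 fold change 0.65 ± 0.17 SE, unadjusted p = 0.0079). Single areas of bcl11b overlapped, at 49.5 to 85.6 CPM in building and 10.0 to 99.0 CPM in control. bcl11b was denser in subpallial spots, at 257 and 214 CPM in building and 246 and 198 CPM in control males. The part of subpallial cells in its pallial level was not tested. cnksr3, a scaffold protein of signaling pathways, was at 43.1 and 39.0 CPM against 20.7 and 23.9 CPM (0.85 ± 0.19 SE). Of the unnamed genes, LOC105940943 was at 33.3 and 30.3 CPM against 13.9 and 13.8 CPM, and LOC101477642 at 73.5 and 97.0 CPM against 45.4 and 45.2 CPM. For both genes the sums of the 2 control males were almost equal, but their single areas were not. LOC101477642 ran from 6.95 to 146 CPM over the control areas, against 65.1 to 130 CPM over the building areas. LOC105940943 ran from 0 to 28.3 CPM, against 21.6 to 44.0 CPM. Areas of both groups thus overlapped. LOC101466531 and LOC101474868 had log2 fold changes of 0.67 and 0.65.

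Among the genes lower in building, sertm1 was at 33.3 and 29.3 CPM in the building males and at 61.1 and 64.4 CPM in the controls. The males of a group lay close together and the groups apart (log2 fold change -1.03 ± 0.17 SE, unadjusted p = 0.00078). pla1a, a phospholipase that forms lysophosphatidylserine, was at 24.1 CPM in both building males against 43.9 and 51.4 CPM (-0.99 ± 0.18 SE). homer3, a scaffold protein of the postsynaptic side of glutamate synapses, was at 20.7 and 19.4 CPM against 38.2 and 36.9 CPM (-0.91 ± 0.18 SE). In their sums both lay lower in each building male than in either control, but single areas of the groups overlapped. LOC101484787 was at 22.4 and 10.2 CPM against 52.9 and 43.9 CPM and LOC101480231 at 11.5 and 19.1 CPM against 38.9 and 32.7 CPM. The remaining 4 genes, LOC112435701, LOC101487901, LOC105941448 and APK84_gt18, had log2 fold changes between -0.73 and -1.16. Of the 20 genes, 19 kept their sign in all 17 alternatives. The exception was LOC101480231, which was 0.21 with capture area C alone. Groups that do not overlap, as the rule required, keep their sign when a male is left out, so this carries little weight.

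**Figure D3:**
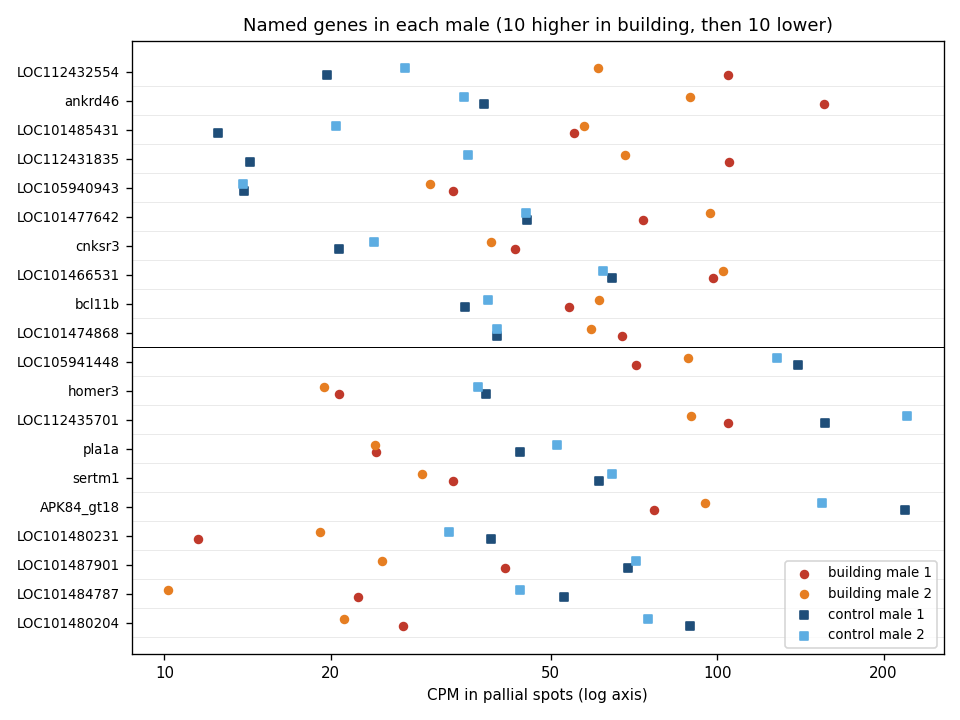
CPM in pallial spots (log axis) of the 20 genes named by the rule, 10 higher and then 10 lower in building, with circles for building and squares for control males. The 2 groups do not overlap for any gene, which the rule required. ankrd46 reaches 156 CPM in building male 1 and 34.9 CPM in control male 2.

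A run of 3 consecutive genes of the feature table was chosen after its values were seen. LOC101480985 had 1 and 6 UMIs in the building males and 43 and 344 UMIs in the control males, or 0.574 and 0.496 CPM against 15.4 and 40.4 CPM. It was nearly absent from both building males and plain in both controls, a 52.1-fold difference of means (log2 fold change -5.77 ± 0.68 SE, unadjusted p = 9.9e-05). In edgeR its adjusted p was 0.693. It passed in some of the 17 alternatives, among them DESeq2, the replicate number as a block and spots thinned to 2000 UMIs, and not in others. The alternatives share the same counts, so this is not separate support. LOC101481663, named crhr1 in the study's tables, is the receptor for corticotropin-releasing hormone and urocortin, peptides of the stress response. It was at 2.87 and 1.98 CPM against 8.93 and 19.1 CPM (-2.70 ± 0.50 SE, unadjusted p = 0.0013). LOC101481176 followed with 3.45 and 3.39 CPM against 10.0 and 21.6 CPM (-2.25 ± 0.45 SE). In all 3 genes control male 2 was the highest and control male 1 the next. None passed the main test, and crhr1 rests on 5 and 24 UMIs in the building males.

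Below the 20 CPM limit a few other genes had p-values as small, and they too were chosen after their values were seen. dhrs12, of the short-chain dehydrogenase family, was at 33.3 and 21.5 CPM against 7.14 and 5.16 CPM (log2 fold change 2.16 ± 0.33 SE). aoc1, which encodes diamine oxidase, an enzyme that breaks down histamine, was at 1.15 and 1.16 CPM against 8.93 and 7.98 CPM (-2.84 ± 0.46 SE). htra1, a secreted protease, was at 6.32 and 3.47 CPM against 16.8 and 20.3 CPM (-2.12 ± 0.36 SE). For each of the 3 genes the sums of the groups lay apart. Single areas of both groups overlapped for aoc1 and htra1, and for dhrs12 through area C of control male 1 (42.4 CPM). In building male 1 aoc1 rests on 2 UMIs. LOC112433100 had 8 and 66 UMIs in the building males and 0 in both controls. Against a floor of 3 UMIs over the control group it was at least 20.4-fold higher in building. LOC112434769 had 0 UMIs in both building males and 8 and 30 UMIs in the controls, at least 15.4-fold lower in building against the same floor over the building group.

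Single capture areas show how far these values depend on the section. Sections of a male are not replicates of a condition, so the area values are a description. LOC101480204 lay between 17.6 and 26.9 CPM in the 5 building areas and between 42.4 and 117 CPM in the 8 control areas. LOC101480985 lay between 0.335 and 0.799 CPM in the building areas and between 11.1 and 47.9 CPM in the control areas. Every building area was thus below every control area. The same held in the opposite direction for LOC101485431, with 54.6 to 61.7 CPM against 0 to 24.6 CPM, and for ankrd46, with 82.4 to 156 CPM against 0 to 45.2 CPM. The 0 values belong to area C of control male 1, where 1 UMI is worth 14.1 CPM. Over all genes every building area was above every control area for 49 genes (0.35%) and below for 16 (0.114%). Of the 20 named genes this held, over all 8 control areas, for 4 higher and 4 lower ones, but these were chosen from sums of the same areas. Without area C of control male 1, 71 genes of all those tested lay above (0.507%) and 35 below (0.25%).

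Other named genes moved with the section as much as with the group. pla1a ranged from 5.63 to 77.4 CPM over the 4 areas of control male 2, which spans the 17.7 to 30.8 CPM of the areas of building male 2. sertm1 ranged from 27.2 to 96.5 CPM in control male 2, against 22.4 to 33.2 CPM in the building areas. htra1 ranged from 0.938 to 35.6 CPM and LOC101484787 from 3.75 to 67.0 CPM in control male 2. In each of these genes areas of both groups overlapped, and the part of section position in the sums was not tested. In a section, fewer cells of a type and less RNA per cell cannot be told apart.

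**Figure D4:**
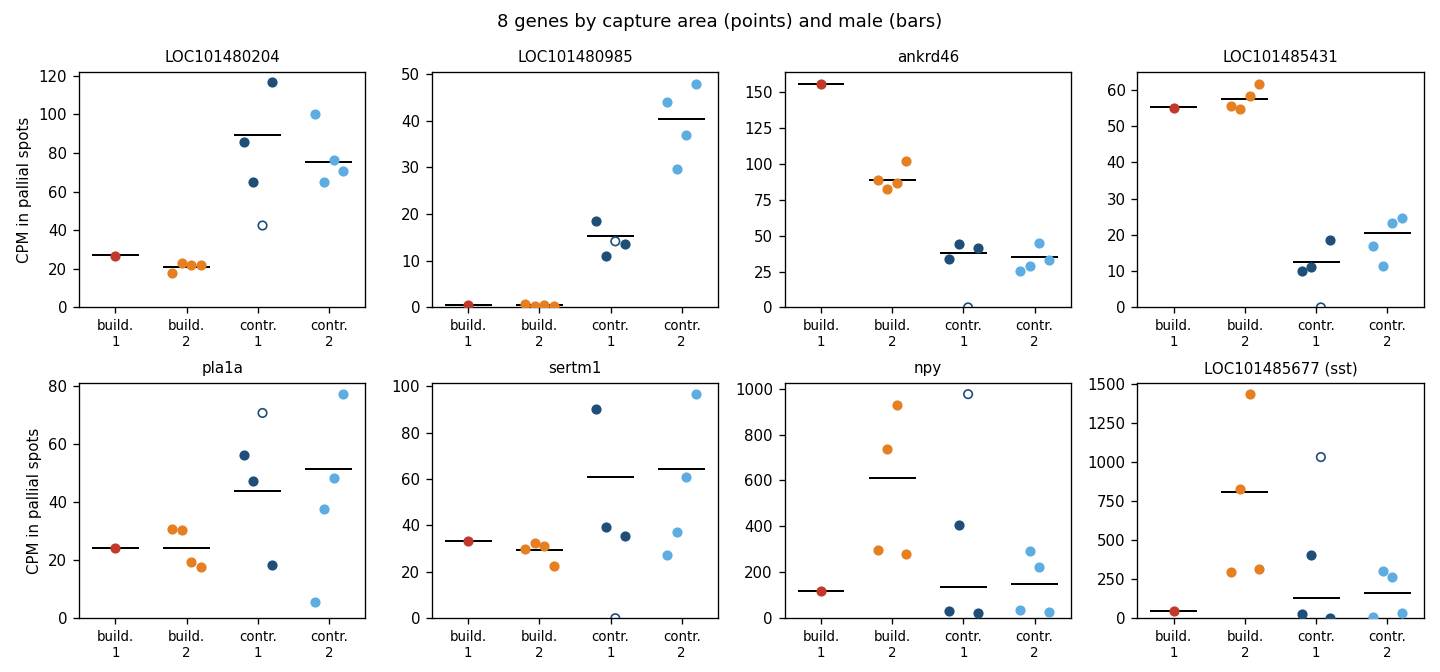
CPM in pallial spots of 8 genes by capture area (points) and for the male as a whole (black bars), building males on the left of each panel and control males on the right. The open circle is area C of control male 1, with 32 pallial spots. LOC101480204 keeps every building area below every control area, whereas npy ranges from 20.9 to 976 CPM within control male 1.

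No immediate early gene passed the main test. All 25 IEG-like genes of the study's list were tested and 0 passed. At an unadjusted p below 0.05 stood 2 higher genes and 0 lower ones, beside 1.01% and 1.14% of all genes. The groups did not overlap for 2 genes above and 5 below, beside 13.4% and 14.1% of all genes, and the median log2 fold change was -0.12 against 0.00 over all genes. egr1, a transcription factor induced within minutes of neuronal firing, was at 375 and 301 CPM in building and 347 and 366 CPM in control males (-0.08 ± 0.16 SE). npas4, which responds to calcium entry, was at 126 and 86.2 CPM against 131 and 104 CPM (-0.16 ± 0.23 SE). In both genes building male 1 and control male 1 were close to each other and the groups overlapped. Over single areas egr1 ran from 241 to 374 CPM in building and from 174 to 566 CPM in control. It was lowest in area A of control male 2 and area D of control male 1. The part of section position in the sums was not tested.

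The 2 genes named fos differed in the same direction without passing. LOC101487312 was at 72.4 and 54.2 CPM in building and 103 and 67.8 CPM in control males (-0.44 ± 0.25 SE), and its groups overlapped. LOC101487601 was at 37.3 and 32.6 CPM against 40.4 and 42.1 CPM (-0.26 ± 0.18 SE). Its single areas ran from 24.7 to 52.7 CPM in building and from 5.63 to 63.3 CPM in control. fosl2, jund, dusp5 and plk2 had log2 fold changes of 0.22, 0.16, 0.19 and -0.24. LOC101463795 (nr4a1) was scarce at 3.40 to 4.64 CPM in the 4 males. The highest log2 fold change was that of LOC101466115 (egr2), at 163 and 118 CPM against 83.2 and 91.8 CPM (0.66 ± 0.20 SE, unadjusted p = 0.014). LOC101487706 (crem), a cAMP-responsive regulator, was at 178 and 114 CPM against 94.7 and 98.8 CPM (0.57 ± 0.23 SE, unadjusted p = 0.044). Both building males were above the controls for these 2 genes, and building male 1 was the higher of the pair in each.

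Neuropeptide genes differed more between the building males than between the groups. npy, neuropeptide Y, was at 120 CPM in building male 1, 609 CPM in building male 2 and 137 and 147 CPM in the control males. LOC101485677, named sst (somatostatin), was at 45.9 and 806 CPM against 131 and 160 CPM. crh was at 8.61 and 66.0 CPM against 23.9 and 15.0 CPM, and pdyn, the precursor of dynorphin, at 33.9 and 151 CPM against 81.1 and 80.5 CPM. In each of these 4 genes building male 2 was the highest of the males and building male 1 the lowest. Their log2 fold changes were 1.38 ± 0.64, 1.57 ± 1.01, 1.14 ± 0.72 and 0.28 ± 0.56 (SE). Without building male 2 they were -0.25, -1.68, -1.12 and -1.26.

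The same genes changed from section to section. Within control male 1, npy was at 30.9, 407, 976 and 20.9 CPM in areas A to D, sst at 30.1, 403, 1033 and 0 CPM and pdyn at 5.41, 275, 439 and 18.4 CPM. Areas B and C, the latter with few spots, were high and A and D low in all 3. Area C of building male 1, its only section, had 120 CPM of npy. The area with the same letter had 928 CPM in building male 2 and 223 CPM in control male 2, so equal letters did not mean equal levels.

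Other ligands varied less. LOC101483958 (cck, cholecystokinin) was at 2076 and 1716 CPM in building and 2303 and 2473 CPM in control males. It lay lower in both building males without passing (-0.33 ± 0.14 SE, unadjusted p = 0.058). LOC101480896 (edn3, endothelin 3) was at 7.46 and 10.2 CPM against 17.1 and 14.0 CPM (-0.74 ± 0.28 SE, unadjusted p = 0.037). bdnf, the neurotrophin that binds the receptor ntrk2, was at 91.3 and 93.0 CPM against 88.6 and 94.0 CPM. adcyap1, which encodes the peptide PACAP, was at 356 and 282 CPM against 298 and 321 CPM. These 2 genes were about level between the groups. Of 35 ligand genes 29 were tested, 0 passed, 1 was lower at an unadjusted p below 0.05, and 0 lay above and 4 below without overlap. Over all genes the shares were 1.01% and 1.14% at that p and 13.4% and 14.1% without overlap. The list's median log2 fold change was 0.17.

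Receptors split between the directions. Of 108 receptor genes 66 were tested and 0 passed, with 1 higher and 2 lower at an unadjusted p below 0.05, and 11 lay above and 13 below without overlap. Over all genes these shares were again 1.01%, 1.14%, 13.4% and 14.1%. Their median was -0.04. LOC101478984 (htr7), a serotonin receptor, was at 8.04 and 9.34 CPM in building and 14.3 and 15.4 CPM in control males (-0.74 ± 0.26 SE, unadjusted p = 0.025). chrm5, a muscarinic acetylcholine receptor, was at 48.8 and 27.3 CPM against 22.9 and 20.1 CPM (0.77 ± 0.30 SE, unadjusted p = 0.043). The third is crhr1, given above. LOC101464170, 1 of 2 genes named cnr1 (cannabinoid receptor 1), was at 112 and 50.9 CPM against 139 and 127 CPM (-0.77 ± 0.35 SE), while the other was at 771 and 888 CPM against 1055 and 774 CPM. LOC101477733 (ntrk2) was at 194 to 196 CPM in all 4 males, the closest agreement of the receptors named. htr1d, esr2 and LOC101484406 (cckbr) were under 6 CPM in every male.

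The machinery of glutamate synapses was mixed. LOC101486280 (gria4), a subunit of AMPA receptors, was at 895 and 711 CPM in building and 1081 and 1174 CPM in control males (-0.49 ± 0.16 SE, unadjusted p = 0.019). It was lower in each building male than in either control. LOC101471251 (grm4), a presynaptic metabotropic receptor, was at 25.3 and 31.1 CPM against 16.4 and 21.4 CPM (0.58 ± 0.22 SE, unadjusted p = 0.038). Over the list 29 of 33 glutamate receptor genes were tested, 0 passed, 5 lay above and 3 below without overlap (beside 13.4% and 14.1% of all genes), and the median was 0.05.

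Of 35 tested genes of the postsynaptic scaffold 22 had a positive and 13 a negative fold change, with a median of 0.07, and only homer3 reached an unadjusted p below 0.05. Vesicle release genes were positive in 28 of 38, against 7084 of all 13994 genes, and had 6 members above and 0 below without overlap, beside 13.4% and 14.1% of all genes. Their median was 0.08. The largest was scg2 (secretogranin II, a protein of dense core vesicles) at 59.7 and 96.0 CPM against 47.2 and 51.5 CPM (0.69 ± 0.24 SE, unadjusted p = 0.028). None of the 38 passed the main test. GABA receptor genes had a median of 0.09 over 12 tested, with 0 at an unadjusted p below 0.05.

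No gene of the study's radial glia lists passed the main test. Of 14 genes of its quiescence list, all tested, 12 had a negative fold change, against 6910 of all 13994 genes, and 0 lay above and 4 below without overlap, beside 13.4% and 14.1% of all genes. Summed over the list, the level was 5757 and 4357 CPM in building and 5362 and 5594 CPM in control males, so building male 1 was the highest of the 4 and building male 2 the lowest. The median was -0.24 and stayed negative in all 17 alternatives, between -0.34 and -0.03. fabp7, a fatty acid binding protein of radial glia, was at 404 and 280 CPM in building and 420 and 493 CPM in control males (-0.43 ± 0.21 SE). LOC101464395 (ptn, pleiotrophin) was at 353 and 281 CPM against 375 and 436 CPM (-0.36 ± 0.17 SE). jag1, a Notch ligand, was at 9.76 and 8.68 CPM against 17.9 and 12.2 CPM (-0.70 ± 0.30 SE). In the first 2 genes building male 1 was close to control male 1 and building male 2 was lowest. 0 of the 14 reached an unadjusted p below 0.05.

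The cycling list had a median of -0.10 over 6 genes, 3 of them positive and 3 negative, of which pcna, a clamp of DNA replication, was at 49.4 and 56.2 CPM against 41.4 and 46.8 CPM. The neuronal differentiation list had a median of -0.06 over 10. The study's module of genes in regions diverged between castle-building and other species had a median of -0.33 over 9 tested genes, 7 of them negative, but with 0 at an unadjusted p below 0.05. It turned to 0.10 with capture area C alone. Of the radial glia markers, LOC101468392 (gfap) was at 67.8 and 86.4 CPM against 84.3 and 70.5 CPM and s100b had a log2 fold change of 0.00.

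Proneurogenic genes of the study's list had a median of 0.04. Of 87 genes 65 were tested, 0 passed, and 9 lay above and 8 below without overlap, beside 13.4% and 14.1% of all genes. LOC101475608 (epha5) was at 7.46 and 17.9 CPM in building and 7.50 and 4.11 CPM in control males (1.32 ± 0.50 SE, unadjusted p = 0.035). ephb3 was at 14.4 and 9.84 CPM against 5.36 and 6.92 CPM (0.89 ± 0.35 SE, unadjusted p = 0.041). Both encode ephrin receptors, which guide axons and cells. Only ephb3 had both building males above both controls. Among 36 tested regional transcription factors the median was -0.07, with bcl11b the smallest in p, and LOC101464108 (etv5) at 177 and 177 CPM against 221 and 232 CPM (-0.35 ± 0.14 SE, unadjusted p = 0.041).

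LOC106675461 (cyp19a1), the aromatase that turns androgens into estrogens and that fish express in radial glia, was at 8.61 and 11.9 CPM in building and 2.50 and 6.34 CPM in control males. Both building males were above both controls (1.15 ± 0.47 SE, unadjusted p = 0.047), from 15, 144, 7 and 54 UMIs. Aromatase was far denser in subpallial spots, at 157 to 506 CPM, and the part of subpallial cells in its pallial level was not tested. LOC101479381 (esr1) was at 5.74 and 3.47 CPM against 1.79 and 3.05 CPM (0.76 ± 0.56 SE). The 17 tested genes of the steroid and glucocorticoid list had a median of 0.00. Of 10 clock genes LOC101485591, 1 of 2 named per2, was at 59.7 and 41.5 CPM against 32.5 and 30.0 CPM (0.66 ± 0.23 SE, unadjusted p = 0.024), while the other was at 62.0 and 38.2 CPM against 39.3 and 39.0 CPM. The 18 heat shock genes had a median of -0.06.

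Markers of other cell types had no gene past the main test. Oligodendrocyte markers had a median of 0.14 over 7 tested genes. mag was at 162 and 220 CPM in building and 238 and 168 CPM in control males. mpz was at 47.1 and 75.2 CPM against 48.2 and 64.4 CPM. Without TMM scaling, mag lay at 161 to 237 CPM in pallial and 42.1 to 58.5 CPM in subpallial spots. For mpz these ranges were 46.9 to 75.4 CPM and 33.7 to 186 CPM, so these markers did not run alike. Microglia markers had a median of 0.24 over 5 genes, 3 of them positive and 2 negative. This median was the value of spi1, which rests on 8 UMIs in building male 1. Their summed level was 504 and 642 CPM against 587 and 551 CPM. Most of it was LOC101466239 (apoeb), at 472 and 617 CPM against 563 and 523 CPM without TMM scaling. Vessel and pericyte markers had a median of 0.11 over 9 genes and a summed level of 228 and 174 CPM against 178 and 194 CPM. Of 12 blood markers only gata1 was matched, at 3.72 to 5.74 CPM. The 3 tested markers of meninges and choroid had a median of 0.05 and summed levels of 31.6 and 21.4 CPM against 32.5 and 32.9 CPM. Only this last sum put both building males on the same side of both controls. In these lists 1 gene reached an unadjusted p below 0.05, cyp19a1.

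Subpallial spots of the same males, with Q at least 5 and greater than 2 times P, served to ask where the pallial difference was its own. They numbered 1529. Within them 0 of 12096 genes passed and 127 (1.05%) had an unadjusted p below 0.05. The difference of the building effect between the classes was tested as an interaction within males, and 0 of 13434 genes passed edgeR's adjusted p of 0.05, with 318 (2.37%) at an unadjusted p below 0.05. limma voom gave 0 as well, with 415 at an unadjusted p below 0.05. No gene was therefore shown to differ between building and control in the pallium alone.

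Some of the genes with a small p in the main comparison had a fold change of like sign and size in both classes. These were picked for that likeness and get no test as a set. LOC101480204 had a log2 fold change of -2.16 in subpallial spots, ankrd46 of 2.02, LOC101485431 of 1.79, LOC112431835 of 1.77 and LOC101480985 of -4.80. For LOC101480204 the subpallial levels were 13.3 and 15.6 CPM in building and 68.5 and 63.6 CPM in control males. Interaction values of these genes lay between -0.88 and 0.30, with unadjusted p from 0.25 to 0.97.

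For others the values of the classes lay apart, again picked for that pattern. LOC105940943 had a log2 fold change of 1.18 in pallial and 0.06 in subpallial spots. pla1a had a log2 fold change of 0.26 in subpallial spots and an interaction of -1.28 ± 0.25 SE (unadjusted p = 0.00058). aoc1 had 0.35 in subpallial spots and an interaction of -3.53 ± 0.54 SE (unadjusted p = 9.5e-05), the smallest of the 13434. Its pallial level was highest in area A of control male 1 (17.0 CPM) and area D of control male 2 (15.5 CPM). Areas C and D of control male 1 had 0 CPM, against 0.399 to 1.67 CPM over the building areas. The part of section position in this was not tested. The subpallial levels of aoc1 were 5.61 and 27.1 CPM in building and 18.1 and 11.9 CPM in control males. LOC101480017 (robo2, a receptor for Slit proteins in axon guidance) was at 8.04 and 5.37 CPM in building and 15.4 and 14.2 CPM in control pallial spots, with an interaction of -1.16 ± 0.24 SE (unadjusted p = 0.00081). It was also highest in area A of control male 1 and area D of control male 2, at 23.9 and 23.6 CPM. bcl11b, sertm1 and dhrs12 had subpallial values of 0.08, -0.25 and 0.59 and interactions of 0.58, -0.73 and 1.41. In edgeR the adjusted p of each interaction was 1.00.

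The interaction also ranked peptides whose levels differed between the building males. pdyn had an interaction of 1.58 ± 0.28 SE and npy of 0.83 ± 0.15 SE (unadjusted p = 0.00028 and 0.00030). ucn, urocortin, a ligand of crhr1, was at 593 and 264 CPM in building and 369 and 342 CPM in control pallial spots. The groups overlapped there, and the interaction of 1.01 ± 0.21 SE (unadjusted p = 0.0010) came with a subpallial log2 fold change of -0.85. LOC101476226 (dnajb5), LOC101483654, igfbp2 and LOC101485530 completed the 5 in each direction, with interactions of -1.08, -1.31, 0.98 and 0.99. LOC101487312 (fos) had an interaction of -0.78 ± 0.19 SE (unadjusted p = 0.0028), with 0.33 in subpallial and -0.44 in pallial spots, and npas4 one of -0.53 ± 0.19 SE (unadjusted p = 0.019). Neither passed after adjustment. Over the IEG-like list the median was -0.12 in pallial and 0.20 in subpallial spots.

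Over all spots of at least 500 UMIs, of which pallial spots are part, 0 of 15530 genes passed and 307 (1.98%) had an unadjusted p below 0.05. LOC101480204 was at 21.6 and 18.2 CPM in building and 83.2 and 71.0 CPM in control males over all spots. ankrd46 was at 162 and 90.6 against 36.8 and 33.8 CPM. For both genes the groups lay as far apart in the whole section as in its pallial spots.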

How the data were processed

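Telencephalon sections of 2 building and 2 control males were profiled with Visium on 13 capture areas. The deposited matrices hold whole UMI counts, not normalized, for each gene at each spot. Per the submitters' processing notes, the authors used Space Ranger 1.3.1, and the study names the *Maylandia zebra* UMD2a assembly as its reference genome. How reads shared by near-identical gene copies were counted is not given in the sources used here, so paralogs are uncertain. No column was left out.

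Counts of pallial spots were summed per male, since spots and sections of a male are not replicates, and tested with edgeR 4.0.16 in R 4.3.3 (filterByExpr, TMM, quasi-likelihood test, Benjamini-Hochberg adjustment over all genes tested). The 4 sums hold 1747973 to 12061697 UMIs. Standard errors are the log2 fold change divided by the root of the F statistic. The interaction fit had 8 sums with the male as a term. Area and subpallial levels are CPM without TMM scaling. The study describes the males as size-matched pairs, but nothing in the labels says that the males numbered alike are a pair. The main fit was therefore unpaired, and with the replicate number as a block 6 genes were called. The p-values measure the spread between these 4 males. Intervals and floors cover counting error only.

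Alternatives were DESeq2 1.42.0, limma 3.58.1 voom over capture areas with the male as a random block, other scalings, no filter, a replicate block, other spot rules, thinned counts and each male left out. The scripts were tested on simulated counts with 200 changed genes. At 2-fold the pallial test recovered 31 to 79 of them, with 7 to 15 false calls. At 4-fold it recovered 171 to 183, with 12 to 42 false calls. The simulated males shared a common mean profile and lacked the section differences of the real males. Recovery in the simulation therefore does not give the power of the real test. In the data even LOC101480985, with a log2 fold change of -5.77, did not pass. Differences of 2-fold, and much larger ones, could thus be missed in a single gene. Genes named are the 10 in each direction with the smallest unadjusted p at a mean of at least 20 CPM and without overlap, a set of known activity, peptide, receptor and glial genes, the 3 members of each list with the smallest p, and 5 genes in each direction of the interaction. Not every gene that this rule takes is reported here. The 8 genes marked so in the text were chosen after their values were seen. The spots, lists and genes were chosen with earlier results of these data known. Lists were taken from the study's tables (activity, proneurogenic, ligand, receptor, region, radial glia and castle-divergent genes) or written for this work. Gene names of LOC numbers come from the study's tables. No sequences are shown, and positions of spots were not analysed here.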

Additional observations from a re-analysis of the deposited data

Results flagged for a closer look

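Dixon's 95% criterion was applied to 31 measures over the 5 building and 8 control capture areas, 60 groups in all. By it, 9 single areas lay farther from the rest of their group than the criterion allows. For independent values chance flags about 1 in 20 groups. Areas of a male are not independent and the groups share the same areas, so this rate does not apply and the flags are a description. In 7 of the 9 the area was C of control male 1, with 32 pallial spots and 70686 UMIs. It was high in the UMIs of the 4 pallial rule genes per 10000 (32.7), in CPM of LOC112432554 (42.4), LOC101466531 (113), APK84_gt18 (1457), LOC105941448 (240.5) and dhrs12 (42.4), and low in ankrd46 (0 CPM). The other 2 were building areas: area C of building male 1 was high in ankrd46 (156 CPM) and area D of building male 2 in bcl11b (85.6 CPM). Area C is the only area of building male 1, so the area and the male cannot be told apart. Without area C of control male 1, 0 genes passed the main test.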

How the results depend on the processing

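No gene passed edgeR's adjusted p of 0.05 in pallial spots, and the count stayed at 0 with TMMwsp scaling, library totals, a stricter spot rule, a share rule, spots of at least 2000 UMIs, equal totals, or without area C of control male 1. DESeq2 called 8 genes, the fit with no filter on low counts 82, area C alone 1 and spots thinned to 2000 UMIs 2. Capture areas with the male as a random block gave 21. The estimated correlation within a male was 0.05 in that fit. Areas thus counted almost as separate replicates, which they are not. Leaving out 1 male gave 0 to 317 calls: 317 without building male 1, 138 without building male 2 and 0 without either control male. The lone male of a group was then assumed to vary like the others. For all spots, an alternative set chosen after seeing the data, the count went from 0 to 16 with DESeq2, 62 with no filter and 0 to 306 without 1 male (99 without building male 1, 306 without building male 2, 1 without control male 2). The interaction went from 0 to 43 with no filter and 0 to 229 without 1 male (161 without building male 1, 229 without building male 2, 1 without control male 1). Beyond fewer samples or more genes tested, the cause of these shifts was not tested.

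With the replicate number as a block, 6 genes were called (4 higher, 2 lower). Deviations of like-numbered males correlated at 0.24, but with 2 such pairs the numbers were not taken as a pairing. The study describes its males as size-matched pairs, but the labels do not say that like numbers mark one. Over all spots the replicate block gave 0.

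Of 43 named genes with an unadjusted p below 0.05, 40 kept their sign in all alternatives. Genes picked for groups that did not overlap keep their sign when a male is left out, so this is no independent support. With area C alone the sign turned for LOC101480231 (0.21), LOC101464108 (etv5, 0.18) and LOC101471251 (grm4, -0.40). Without 1 male, pdyn ran from -1.26 to 0.91, LOC101485677 (sst) from -1.68 to 2.47 and igfbp2 from -1.69 to 1.34, the lowest each time without building male 2. Of the 80 other named genes, 52 changed sign under some alternative. Of 24 lists, 2 kept the sign of their median in all (quiescent radial glia and microglia markers). The microglia median over 5 genes was, in the main fit, the value of the scarce gene spi1. Shares of pallial spots depended on the rule. The stricter rule gave 14.6% and 21.3% in building and 11.6% and 23.1% in control males. The share rule gave 33.9% and 36.8% against 35.0% and 39.5%, and spots of at least 2000 UMIs 34.9% and 40.9% against 40.3% and 45.5%. Thinned spots gave 36.1% and 32.7% against 39.1% and 38.5%, where both building males lay below both controls, unlike under the main rule. At 1747973 UMIs, building male 1 limits what can be seen for genes of a few CPM.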

Other observations

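Some genes, picked for this pattern and not tested, followed the replicate number and not the behavior. zeb2, a transcription factor of neurons and glia, was at 420 and 227 CPM in building males 1 and 2 and at 481 and 251 CPM in control males 1 and 2. sox4, a transcription factor of newborn neurons, was at 7.46 and 1.98 CPM against 10.0 and 2.82 CPM, and tbr1 at 3.45 and 1.16 CPM against 3.93 and 1.64 CPM. In all 3 genes the males numbered 1, which are also the shallower ones, were higher than the males numbered 2. By area zeb2 overlapped, at 238 to 622 CPM in control male 1 and 209 to 359 CPM in control male 2. In building male 1 sox4 rests on 13 UMIs and tbr1 on 6. LOC112429876, 1 of 2 genes named ntrk2, was at 17.8 and 2.40 CPM against 6.79 and 2.46 CPM.

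The eomesa gene LOC101480282, used for choosing spots, ranged from 3.69 to 736 CPM over the areas of control male 1. It ranged from 9.38 to 600 CPM over those of control male 2 and from 228 to 694 CPM over the building areas. The lowest were area D of control male 1 and area A of control male 2, below every building area. These areas had the highest mag, at 455 and 412 CPM, against 151 to 249 CPM over the building areas. The more abundant gene named cnr1 was also highest there, at 1863 and 1554 CPM, against 670 to 1055 CPM. Whether kinds of section differed between the groups was not tested. Since LOC101480282 helped choose the spots, its levels are values only.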
